A study of Rattus norvegicus with 458 samples.

Results

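miR-138 is a microRNA (miRNA) that is made from 2 hairpins in the rat genome, Mir138-1 and Mir138-2. A hairpin is cut by the enzymes Drosha and Dicer into a 5p and a 3p arm, and a miRNA finds its targets through its seed, bases 2 to 8. miR-138 is known as a neuronal miRNA that is present in dendrites, where it limits the size of dendritic spines by repressing the depalmitoylating enzyme APT1 (Lypla1), and the hairpin of locus 2 is known to be present in more tissues than the mature miRNA. The 5p arm is the same in both loci, while the 3p arms differ, so that miR-138-1-3p and miR-138-2-3p tell the loci apart. The entries described here are the names in the miRNA count table that carry miR-138-5p, miR-138-1-3p or miR-138-2-3p, alone or in a composite name, and that are mature rather than precursor entries. They were 5 of 7534 names and 1059 of the 264294 sequence variants (isomiRs) in the isomiR count table. miR-138-5p had 1646843 counts over all libraries, miR-138-1-3p had 5609 and miR-138-2-3p had 1913. The 2 composite names held 14 and 3 counts and are not described further.

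The tissues other than the dorsal root ganglion came from 10 untreated Sprague Dawley rats, 5 of each sex, 12 to 13 weeks old, and the comparisons were between organs, with no treatment or genetic change. The 5 neural tissues were cerebrum, hippocampus, cerebellum, brainstem and dorsal root ganglion (DRG), and the other 18 were heart, soleus, biceps femoris, liver, kidney, kidney cortex, kidney medulla, pancreas, adrenal, glandular and non-glandular stomach, duodenum, jejunum, ileum, testis, ovary, uterus and whole blood. Each tissue was sampled in 10 rats, except testis, ovary and uterus (5 rats each) and DRG, which was sequenced as 1 pool of 5 female and 1 pool of 5 male animals with 5 technical libraries per pool. The DRG samples are listed with the same age of 12 to 13 weeks. The RNA of the DRG was supplied by another institution and its libraries carry no rat number, so that tissue, animals and RNA source cannot be told apart for the DRG, and the technical libraries of a pool were summed and counted as 1 sample. The libraries held 376401 to 17725805 counts (median 4816409), and those of the neural tissues 946725 to 7506562. The study reports lower RNA integrity for pancreas and for some hippocampus and uterus samples. Some of these hippocampus samples are kept below, and no integrity value is listed for the DRG libraries. The part of RNA integrity in the levels, shares and read ends was not tested.

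The 2 hairpins and the arms cut from them are shown because all readouts below turn on where they differ. In RefSeq (assembly GRCr8), Mir138-1 lies on the plus strand at chr8:131178434-131178532 and Mir138-2 on the minus strand at chr19:10680133-10680214, and in the hairpins the capitals mark the annotated arms.
Mir138-1: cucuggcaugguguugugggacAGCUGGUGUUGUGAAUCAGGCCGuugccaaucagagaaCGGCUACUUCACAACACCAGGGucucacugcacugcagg
Mir138-2: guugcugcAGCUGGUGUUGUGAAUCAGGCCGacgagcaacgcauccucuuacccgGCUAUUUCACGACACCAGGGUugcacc
In the mature miRNAs the capitals mark the seed.
miR-138-5p: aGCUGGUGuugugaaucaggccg
miR-138-1-3p: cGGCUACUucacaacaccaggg
miR-138-2-3p: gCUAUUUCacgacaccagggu
The most counted isomiR of miR-138-1-3p (2718 of 5609 counts, 48.5%) is also shown, because it starts 2 bases past the annotated start and so carries another seed, and it is written in DNA letters as deposited, with bases 2 to 8 in capitals.
miR-138-1-3p from the later start: gCTACTTCacaacaccagggt
The 3 annotated arms have 3 different seeds. Read from its later start, the 3p arm of locus 1 was identical to miR-138-2-3p at 19 of 21 bases, with the substitutions C5U and A11G (the base of locus 1, the position from 1 at the 5′ end, then the base of locus 2), and its seed matched that of miR-138-2-3p at 6 of 7 bases.

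Some libraries stood apart from their labels. The miRNA profile of each library (852 names, without the miR-138 entries) was correlated with that of every other library. The median correlation was then taken with the libraries of its own tissue and of each other tissue. For 10 libraries the median of another tissue was higher by more than 0.05. Of these, 3 were labelled hippocampus (rats 2, 6 and 7) and were closest to uterus, duodenum and ovary, and 4 were labelled duodenum (rats 2, 4, 7 and 11) and were closest to cerebrum, hippocampus, cerebrum and adrenal. The others were 1 library each of adrenal, ovary and uterus. The hippocampus libraries of rats 2, 6 and 7 held 13.1, 54.3 and 132.7 CPM of miR-138-5p (counts scaled to a library total of 1000000), and the duodenum libraries of rats 2, 4 and 7 held 6792, 8601 and 23749 CPM. All the levels and shares below are given without these 10 libraries unless stated. The tests are given with all libraries, and values without the 10 follow where leaving them out moved a difference or a call. In addition, the summed level of the sensory neuron miRNAs (miR-183, miR-96 and miR-182) was 108.7 CPM in the brainstem library of rat 9, against 5348 to 6741 CPM in the other 9, and 7648 CPM in the cerebellum library of rat 10, against 134.1 to 462.9 CPM in the other 9. Leaving out this pair of libraries as well, a choice made after the data were seen, changed no call between brain regions. Both libraries are kept in the levels and shares below. The brainstem library of rat 9 gave the highest miR-138-5p and the lowest miR-138-1-3p level of that region.

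The neural labels were checked with lists of marker miRNAs. In the mean of the 4 brain regions all 12 miRNAs of a list for neuron-rich tissue and all 3 for myelinating glia were above the mean of the 18 non-neural tissues. All 5 epithelial ones were below it. In the DRG the 3 sensory neuron miRNAs summed to 77470 and 81030 CPM in the pools, and the neuron-rich list summed to 3796 and 4627 CPM, under the 30800 to 45530 CPM of the brainstem and the 69710 to 113200 CPM of the cerebrum.

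miR-138-5p was highest on average in the 5 neural tissues. Its level was 11088 ± 2885 CPM in hippocampus (SD, n = 7; lowest 6046, median 11579, highest 15265). It was 9588 ± 1582 CPM in cerebrum (n = 10; 6703, 10142 and 11837). The DRG pools held 7074 CPM (female) and 9336 CPM (male). The ranges of these 3 tissues and of brainstem overlapped. Brainstem held 6984 ± 1681 CPM (n = 10; 4582, 7233 and 9645). Cerebellum held 2217 ± 446 CPM (n = 10; 1342, 2284 and 2838), which is 23.1% of the cerebrum mean, and its range overlapped that of no other neural tissue. The testis came next with 783 ± 216 CPM (n = 5; 578 to 1134), 8.16% of the cerebrum mean, and lay below every cerebellum sample. The testis libraries were the shallowest of all, with 376401 to 653651 counts.

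Below the testis the level fell in small steps. Ovary (221 ± 57 CPM, n = 4) and adrenal (215 ± 69 CPM, n = 9) held about the same level, followed by duodenum (109 ± 31 CPM, n = 6), ileum (92.3 CPM), jejunum (74.6 CPM) and the kidney samples (47.9 to 63.6 CPM). Soleus, stomach, liver, uterus, biceps femoris, heart and pancreas lay between 15.1 and 35.3 CPM on average, and whole blood was lowest at 3.58 ± 1.82 CPM (n = 10; 1.04 to 6.98). In this order from hippocampus to whole blood only 4 neighbours did not overlap: brainstem and cerebellum, cerebellum and testis, testis and ovary, and pancreas and whole blood. The pancreas value depended on the total used. It was 15.1 CPM of all counts (n = 10; 10.02 to 22.4) and 38.7 CPM of a total without predicted and precursor names (23.5 to 58.1), which put it above soleus, and no other tissue mean moved by as large a factor.

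**Figure D1:**
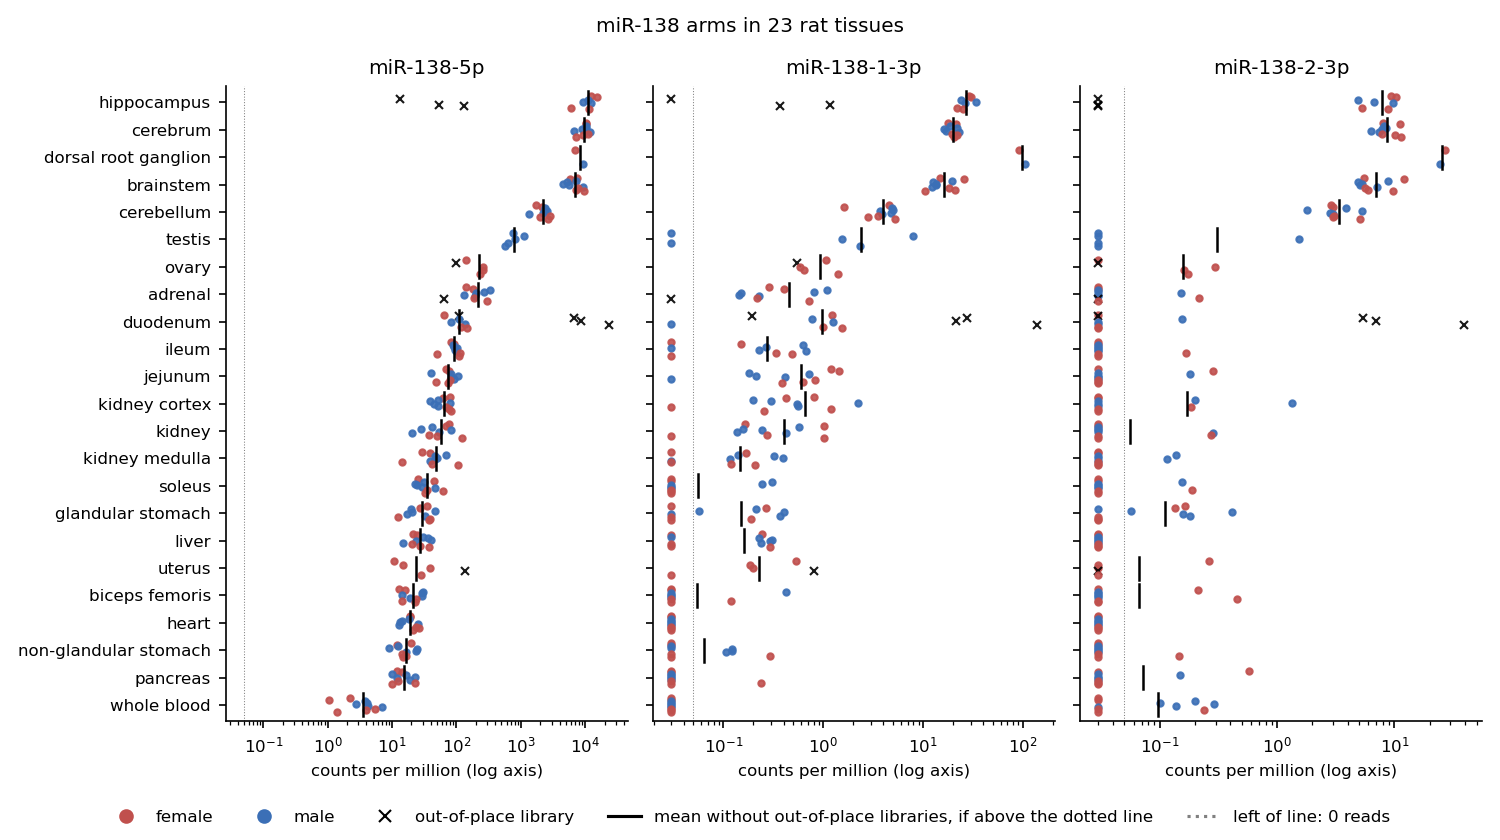
Level of the 3 miR-138 miRNAs (CPM, log axis, 1 panel each) in the 23 tissues; each dot is a rat or DRG pool (red female, blue male), a cross is a library that stood apart from its label, the bar is the mean without those libraries, and samples left of the dotted line had 0 reads. The 5 neural tissues hold the highest means of each miRNA, and the DRG pools lie within the brain range for miR-138-5p and above it for both 3p arms.

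The 3p arms were far less abundant and had another order, with the DRG on top. miR-138-1-3p held 91.6 CPM in the female and 105.1 CPM in the male DRG pool. Hippocampus held 27.2 ± 3.9 CPM (n = 7; lowest 22.1, median 26.3, highest 33.5) and cerebrum 19.7 ± 2.3 CPM (n = 10; 16.2, 20.04 and 22.7). Brainstem held 16.1 ± 4.7 CPM (n = 10; 10.5, 14.1 and 25.6) and cerebellum 3.98 ± 1.13 CPM (n = 10; 1.60, 4.202 and 5.19). Both DRG pools were above every brain sample, and every cerebellum sample was below every other neural sample. Outside the nervous system miR-138-1-3p rested on few reads: 5 in the 5 testis libraries, at most 26 in any other tissue, and 0 in heart and whole blood.

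miR-138-2-3p held 27.0 CPM in the female and 24.3 CPM in the male DRG pool. Cerebrum held 8.66 ± 1.68 CPM (n = 10; lowest 6.30, median 8.05, highest 11.4), hippocampus 7.84 ± 2.19 CPM (n = 7; 4.87, 8.82 and 10.2) and brainstem 6.98 ± 2.38 CPM (n = 10; 4.87, 5.80 and 11.9). Cerebellum held 3.37 ± 1.06 CPM (n = 10; 1.81, 2.99 and 5.25). Here the cerebellum overlapped the other brain regions, and the DRG pools again lay above all brain samples. The mean of the DRG pools was 498% of the cerebrum mean for miR-138-1-3p and 296% for miR-138-2-3p, but 85.6% for miR-138-5p. Heart and liver had 0 reads of miR-138-2-3p.

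The first comparison asked how far the 4 brain regions lay from the 18 non-neural tissues. All 3 miRNAs were higher in brain, by a log2 fold change of 4.75 for miR-138-5p (standard error, SE, 0.15, edgeR quasi-likelihood test, adjusted p = 3.4e-74), 4.00 for miR-138-1-3p (SE 0.21, adjusted p = 2.2e-43) and 4.29 for miR-138-2-3p (SE 0.24, adjusted p = 3.9e-40). Of the 1641 names tested, 25.1% were higher in brain, and the median of all names was -0.82. Both 3p arms had hardly any reads in most non-neural tissues, so the sizes of their fold changes rest on few counts there. Such names enter the test mainly through samples in which they are high, which favours this direction, here and against the rest below. Without the 10 libraries the log2 fold changes were 5.10, 4.26 and 4.63, with 26.2% of names higher. The lowest value within either set of flow cells was 4.67 for miR-138-5p, 3.21 for miR-138-1-3p and 3.25 for miR-138-2-3p. The study's methods put brain in 1 collection batch with kidney, pancreas, testis, biceps and soleus. Against these 5 tissues alone, a comparison added after the data were seen, the log2 fold changes were 5.44, 4.76 and 4.51 (SE 0.28, 0.35 and 0.40, edgeR adjusted p = 7.6e-45, 1.8e-27 and 8.8e-22, 24.9% of names higher). They were 5.57, 4.87 and 4.62 without the 10 libraries, with 25.3% of names higher. In bulk tissue, fewer cells of a type and less RNA per cell cannot be told apart. The p-values here and below rest on 1 RNA sample per rat and tissue, and for the DRG on 2 pools. In the edgeR fit all tissues share 1 estimate of the spread. The DRG p-values and intervals therefore do not measure the variation between DRG animals.

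The DRG was then compared with the mean of the brain regions. miR-138-1-3p was higher in the DRG by 3.33 on the log2 scale (SE 0.57, 95% interval 2.22 to 4.44, edgeR adjusted p = 7.4e-07). miR-138-2-3p was higher by 2.50 (SE 0.68, 95% interval 1.17 to 3.84, edgeR adjusted p = 0.0035). For miR-138-5p, the partner arm of both, the difference was 0.84 (SE 0.61, 95% interval -0.35 to 2.03, edgeR adjusted p = 0.399) and did not pass the test. The interval of miR-138-1-3p lay above that of miR-138-5p, and those of miR-138-2-3p and miR-138-5p overlapped. In this comparison 11% of the names were higher in the DRG. By size, miR-138-1-3p ranked 56 and miR-138-2-3p ranked 101 from the top of 1641 names, and miR-138-5p ranked 409. Without the 10 libraries the differences were 3.25, 2.43 and 0.75 (edgeR adjusted p = 7.8e-10, 0.00018 and 0.132), with 18% of names higher. The call of miR-138-2-3p was lost in DESeq2 (2.17, SE 1.18, adjusted p = 0.236) and with only 1 pool (edgeR adjusted p = 0.0605 with the female pool and 0.277 with the male pool), whereas that of miR-138-1-3p held in all of these. The list for neuron-rich tissue moved the other way in the DRG, with 0 of 12 higher and 7 lower (median log2 fold change -3.26), and all 3 sensory neuron miRNAs were higher (median 6.51). Some markers of other cells passed the test too. Of 3 striated muscle miRNAs, miR-1-3p was higher by 3.85 (edgeR adjusted p = 7.4e-07), at a mean of 4.98 CPM in the DRG. Of the 2 red blood cell miRNAs tested, miR-451-5p was higher by 1.76 (edgeR adjusted p = 8.4e-05). Of the 3 glial miRNAs, miR-338-3p was higher by 1.55 and miR-219a-5p differed by -4.71 (edgeR adjusted p = 0.0073 and 0.0010). The other members of these lists did not pass. Neither did the 2 smooth muscle, 5 epithelial, 3 intestinal epithelial and 1 endothelial miRNAs. With the 10 libraries left out, 11 of 12 miRNAs of the neuron-rich list were lower (median -3.35) and the 3 sensory neuron miRNAs were higher (median 7.81). In that fit 2 of 2 smooth muscle, 2 of 2 red blood cell and 2 of 3 striated muscle miRNAs were higher, 1 glial miRNA was higher and 2 were lower, and 0 of 5 epithelial ones passed. The part of cell makeup in the miR-138 differences was not tested.

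**Figure D2:**
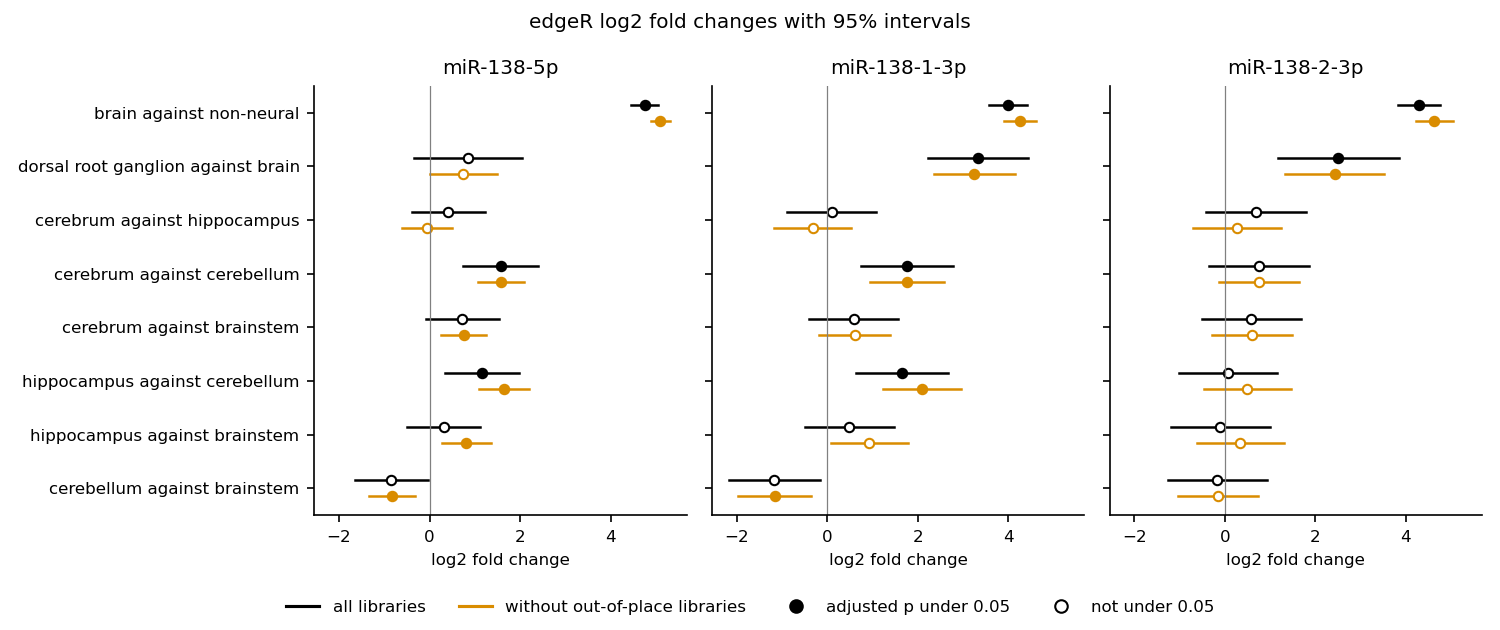
Log2 fold changes of the 3 miRNAs from edgeR with 95% intervals in 8 comparisons, with all libraries (black) and without the 10 libraries that stood apart (orange); filled points have an adjusted p under 0.05. The interval of miR-138-5p in the DRG comparison spans or touches 0, while those of both 3p arms lie above it.

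Within the brain, 6 pairs of regions gave 18 comparisons, of which 4 passed the test. Cerebrum was above cerebellum in miR-138-5p (log2 fold change 1.57, SE 0.42, edgeR adjusted p = 0.0026) and in miR-138-1-3p (1.76, SE 0.52, edgeR adjusted p = 0.0071), in a comparison in which 10.1% of names were higher in cerebrum. Hippocampus was above cerebellum in miR-138-5p (1.16, SE 0.42, edgeR adjusted p = 0.025) and in miR-138-1-3p (1.66, SE 0.52, edgeR adjusted p = 0.0083), with 20% of names higher. Both differences concern the arm shared by the loci and the 3p arm of locus 1. In the runs of 1 flow cell alone, which held every sample at a median of 620093 counts against 4862539 in all runs, 1 of the 4 passed (miR-138-5p between cerebrum and cerebellum, 1.44, edgeR adjusted p = 0.0116), with the other 3 at 1.04 to 1.501, and in the runs of the other flow cells the same 4 passed.

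Leaving out the 10 libraries, 3 of them labelled hippocampus, gave 8 of 18. Cerebrum then differed from cerebellum by 1.58 in miR-138-5p and 1.77 in miR-138-1-3p (edgeR adjusted p = 1.2e-07 and 0.00029, 14% of names higher). The hippocampus differences from cerebellum became 1.64 for miR-138-5p and 2.09 for miR-138-1-3p (edgeR adjusted p = 3.5e-07 and 5.7e-05, 10.4% of names higher). miR-138-5p was then also lower in brainstem than in cerebrum, by 0.75 (SE 0.26, edgeR adjusted p = 0.0293, 9.24% of names higher in cerebrum), and than in hippocampus, by 0.81 (SE 0.28, edgeR adjusted p = 0.031, with 7.51% higher in hippocampus). Cerebellum was below brainstem in miR-138-5p (-0.83, SE 0.26, edgeR adjusted p = 0.0069) and miR-138-1-3p (-1.16, SE 0.41, edgeR adjusted p = 0.0204), where 13.5% of names were lower. The difference between cerebrum and hippocampus in miR-138-5p was 0.42 (SE 0.41, edgeR adjusted p = 0.562) with all libraries and -0.059 (95% interval -0.61 to 0.49) without the 10.

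miR-138-2-3p, the 3p arm of locus 2, passed the test in 0 of 6 pairs of regions with or without those libraries. Its difference between cerebrum and cerebellum was 0.75 (95% interval -0.36 to 1.85), or 0.76 (-0.13 to 1.65) without the 10 libraries, so that a difference as large as that of miR-138-5p lay within its interval.

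Between the sexes no difference was detected: 0 of 12 comparisons (3 miRNAs in 4 regions) passed in edgeR, TMM scaling or DESeq2, and 0 had an unadjusted p under 0.05, the lowest being 0.374 in edgeR and 0.294 in DESeq2. The share of all names that passed in either direction was 0.0891% in cerebrum, 9.80% in hippocampus, 0.802% in cerebellum and 0% in brainstem. In the hippocampus, which held the libraries that stood apart, the interval for miR-138-5p without them was -0.59 to 0.90 on the log2 scale.

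Each tissue was also set against the mean of the other 22. All 3 miRNAs were higher in each of the 5 neural tissues, miR-138-5p by 4.73 in the DRG, 4.56 in cerebrum, 4.13 in hippocampus, 3.80 in brainstem and 2.91 in cerebellum on the log2 scale, where 13.3%, 24.0%, 28.9%, 22.3% and 23.4% of all names were higher. These differences were 4.92, 4.73, 4.80, 3.95 and 3.08 without the 10 libraries, where 17.1%, 25.1%, 22.4%, 23.8% and 24.6% of names were higher. By the size of its difference with all libraries miR-138-5p ranked 14 of 1641 names in the DRG, 78 in cerebrum and 126 in cerebellum. It was lower in 11 non-neural tissues, from -1.07 (kidney) to -3.35 (pancreas), where the share of all names that were lower was 13.3% in pancreas, 13.2% in biceps femoris, 7.98% in heart, 16.6% in whole blood, 11.5% in soleus, 9.38% in liver, 4.75% in glandular and 9.02% in non-glandular stomach, 6.03% in kidney medulla, 5.30% in kidney cortex and 5.91% in kidney. These 11 passed as lower without the 10 libraries too, from -0.90 (kidney) to -3.21 (pancreas), and so did the uterus, at -1.53 (edgeR adjusted p = 0.00014, 3.41% of names lower). The study reports that pancreas had the lowest RNA integrity and the fewest reads on mature miRNAs. In CPM whole blood, and not pancreas, was lowest. In the testis miR-138-5p differed by 0.56 (edgeR adjusted p = 0.314) or, without the 10 libraries, by 0.72 (edgeR adjusted p = 0.010, 20.4% of names higher).

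In the duodenum all 3 miRNAs passed the test as higher than in the rest (log2 fold change 3.27 for miR-138-5p, with 30.7% of names higher), but these comparisons held the 3 libraries that lay closest to brain. Without the 10 libraries miR-138-5p differed by -0.086 (edgeR adjusted p = 0.991). miR-138-1-3p kept a difference of 1.35 (edgeR adjusted p = 0.0018, 20.3% of names higher) on 19 reads. Other calls outside the nervous system rested on few reads too: miR-138-1-3p in jejunum (0.94, edgeR adjusted p = 0.018, 27.4% of names higher, 26 reads) and miR-138-2-3p in whole blood (1.87, edgeR adjusted p = 0.0032, 36.1% of names higher, 7 reads). These were 1.04 (edgeR adjusted p = 0.0017, 29.2% of names higher) and 2.13 (edgeR adjusted p = 0.00092, 38.5% of names higher) without the 10 libraries. DESeq2 called neither.

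The share of the 3p arms in all miR-138 reads of a sample compares arms within a library and needs no scaling between libraries. It was 0.302% ± 0.059 in cerebrum (SD, n = 10; 0.249 to 0.435), 0.330% ± 0.080 in hippocampus (n = 7; 0.263 to 0.450), 0.341% ± 0.091 in cerebellum (n = 10; 0.214 to 0.507) and 0.346% ± 0.126 in brainstem (n = 10; 0.207 to 0.647). In the DRG it was 1.37% in one pool and 1.65% in the other, above all brain samples, and the 10 technical libraries lay between 1.14% and 2.59%. The difference from cerebrum was 1.21 percentage points (exact permutation test, two-sided, p = 0.0303, the smallest that 2 against 10 samples can give, adjusted p = 0.121 over 48 tests of shares and ends). None of the 10 comparisons of this share passed after adjustment, and 3 had an unadjusted p under 0.05. The study states that ligase bias, by which some miRNAs are read too often or too rarely, affected its sequencing. It proposes that this bias may depend on the bases of a miRNA. Shares of arms and loci, here and below, are shares of reads, and their distance from shares of molecules was not tested.

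The share of locus 1 among the 3p reads was 69.6% ± 3.4 in cerebrum (n = 10; 64.3 to 75.3), 69.5% ± 7.4 in brainstem (n = 10; 51.9 to 77.6) and 77.8% ± 4.4 in hippocampus (n = 7; 73.2 to 83.3). The DRG pools had 77.2% and 81.2%. The lowest brainstem value was that of rat 9, whose library is described above for its low sensory neuron miRNAs. That sample also enters the paired comparison with hippocampus below. In cerebellum 1 rat reached the minimum of 50 3p reads, and the sum over the 10 rats was 194 of 366 reads, 53.0% (exact binomial 95% interval 47.7 to 58.2, counting error only). Hippocampus was above cerebrum of the same rat in 7 of 7 rats, by 9.23 ± 4.86 points (exact permutation test, two-sided, p = 0.0156, the smallest for 7 pairs, adjusted p = 0.121), and above brainstem in 7 of 7, by 8.24 ± 7.49 points (the same p). None of the 6 comparisons passed after adjustment, and 3 had an unadjusted p under 0.05.

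With a minimum of 20 reads the cerebellum could be tested. Cerebrum was above cerebellum in 9 of 9 rats, by 17.7 ± 7.3 points (exact permutation test, p = 0.0039, adjusted p = 0.0492), and brainstem in 9 of 9, by 17.6 ± 11.5 points (exact permutation test, adjusted p = 0.0492). With the 10 libraries also left out, the adjusted p was 0.0615 for both.

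**Figure D3:**
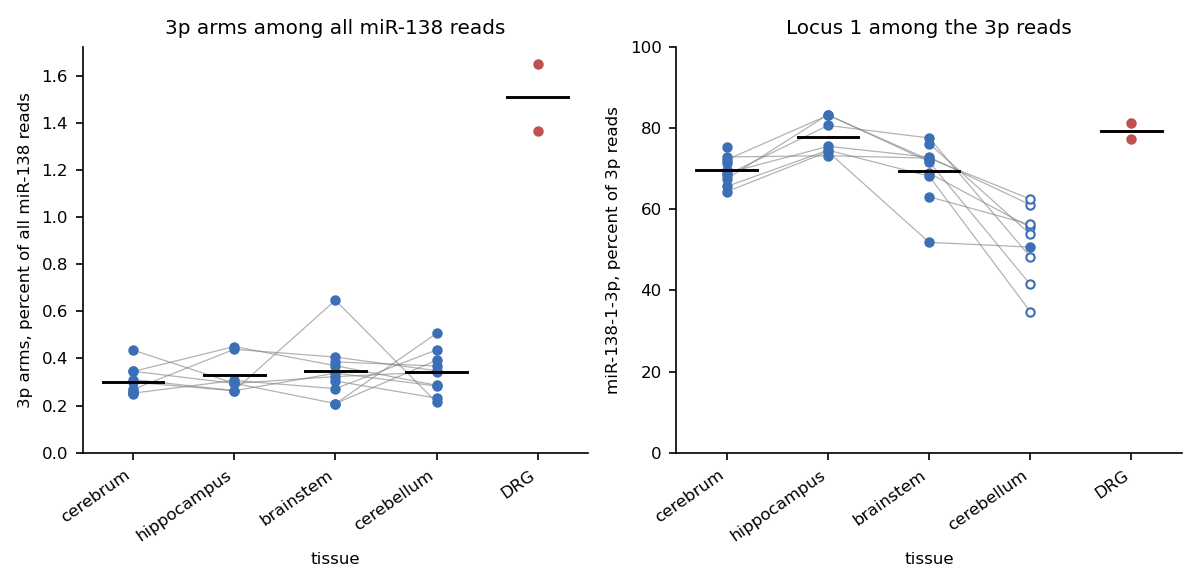
Left, the share of 3p reads in all miR-138 reads (percent) and right, the share of locus 1 in the 3p reads (percent), per rat in the neural tissues without the libraries that stood apart; filled points have at least 50 reads in the denominator, open points 20 to 49, grey lines join the samples of a rat, bars are means of the filled points and the DRG pools are red. The DRG pools stand at 1.37% and 1.65% on the left, and on the right the cerebellum samples lie low.

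The 5p arm can be assigned to a locus only by reads that run past the shared 23 bases, and 91.4% of its reads matched both hairpins. The reads that matched 1 hairpin only were 26961 for locus 1 and 4274 for locus 2. Locus 1 took 84.3% ± 2.2 of them in cerebrum, 85.6% ± 1.5 in brainstem, 85.8% ± 2.0 in hippocampus, 88.2% ± 1.6 in cerebellum, and 90.9% and 91.5% in the DRG pools. Locus 1 thus took the larger share of the reads by either arm in the neural tissues, except by the 3p arm in cerebellum, where the interval of the share includes 50%. This is a share of reads, and ligase bias between the sequences compared was not tested. For cerebellum the arms gave opposite orders, lowest by the 3p arm and highest of the 4 brain regions by the 5p arm. A base added to the end of a read after cutting can look like the hairpin's own base, and the share of such reads was not tested.

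The ends of the reads differed between arms. Over all libraries, the 5p reads began at the annotated base in 96.2% of the counts and the miR-138-2-3p reads in 88.9%, but the miR-138-1-3p reads in only 34.2%, with 58.8% beginning 2 bases later. The most counted isomiR of miR-138-5p was the annotated one with 1228919 counts (74.6%), and the next was 2 bases shorter at its end.
miR-138-5p, annotated: aGCTGGTGttgtgaatcaggccg
miR-138-5p, 2 bases shorter: aGCTGGTGttgtgaatcaggc
The shorter form had 214204 counts (13.0%) and kept the seed in capitals.

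Among the miR-138-1-3p reads the later start took 76.7% and 82.3% in the DRG pools. It took 40.8% ± 9.8 in cerebrum (n = 10; 20.3 to 58.0), 41.6% ± 8.6 in hippocampus (n = 7; 33.7 to 58.5) and 48.3% ± 11.7 in brainstem (n = 8 with 50 reads; 33.3 to 63.3). Both DRG pools were above every sample of these 3 regions. In cerebellum it took 121 of 190 reads summed, 63.7% (exact binomial 95% interval 56.4 to 70.5). The difference between DRG and cerebrum was 38.7 points (exact permutation test, p = 0.0303, adjusted p = 0.121), that from hippocampus 37.9 points (exact permutation test, p = 0.0556, adjusted p = 0.167) and that from brainstem 31.3 points (exact permutation test, p = 0.0444, adjusted p = 0.152), and none passed after adjustment. The later start carries the seed CUACUUC, 1 base from the seed of miR-138-2-3p, and the annotated start carries GGCUACU.

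In 1 of 23 sequencing lanes (14 runs of 14 libraries) many reads carried an extra first base that neither hairpin holds. There 60.2% of the miR-138-5p reads began 1 base early, as in aAGCTGGTgttgtgaatcaggccg, against at most 0.178% in the other 22 lanes. These 2 values also count reads with the C that both hairpins hold before the arm. Of the reads of 44 other miRNAs in this lane, 49.9% had an extra base that no hairpin holds. Its neural libraries were the cerebrum of rat 9, the brainstem of rat 6 and 1 of the 5 libraries of the male DRG pool. Without this lane miR-138-5p began at its annotated base in 99.7% of the reads in all 5 neural tissues, and the later start of miR-138-1-3p took 82.3% in both DRG pools and 43.1% ± 7.1 in cerebrum.

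The length of miR-138-5p was the readout of its ends that differed between brain regions. Reads of 23 bases made up 85.6% ± 0.87 in cerebellum (n = 10; 84.2 to 86.9). They made up 75.1% ± 13.0 in cerebrum, 79.6% ± 1.7 in hippocampus (n = 7), 73.9% ± 12.7 in brainstem, and 74.8% and 77.5% in the DRG pools. The wide spread held the cerebrum of rat 9 at 38.5% and the brainstem of rat 6 at 38.0%, both sequenced in the lane with the extra base, and without that lane the mean was 79.2% ± 1.8 in cerebrum and 77.9% ± 1.6 in brainstem. Cerebellum was above each of the other regions in 10 of 10 rats with all libraries (exact permutation test, two-sided, p = 0.00195, the smallest for 10 pairs, adjusted p = 0.0313 for each), by 10.5 ± 13.2 points over cerebrum, 6.29 ± 3.03 over hippocampus and 11.7 ± 12.4 over brainstem. Without the 10 libraries the adjusted p was 0.0469 for cerebrum and brainstem and 0.121 for hippocampus (exact permutation test, higher in 7 of 7 rats). The form that ends 2 bases short moved the other way, with 9.44% ± 0.52 of the reads in cerebellum, 13.6% ± 1.1 in hippocampus, 13.9% ± 0.85 in cerebrum, 15.98% ± 1.02 in brainstem, and 14.3% and 14.8% in the DRG pools, and the cerebellum range overlapped none of these.

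**Figure D4:**
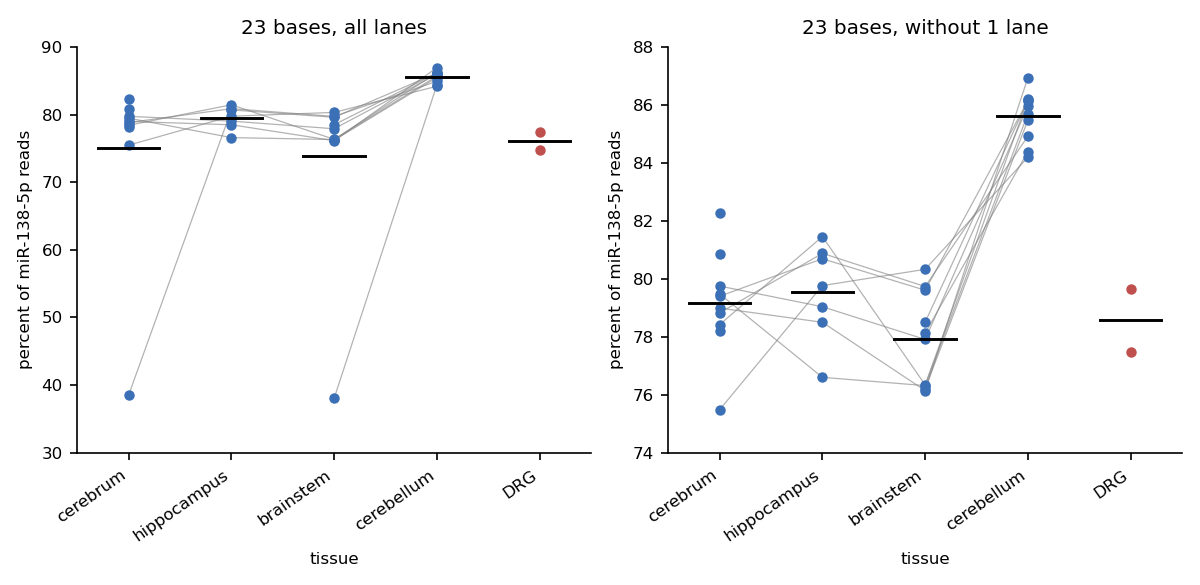
Share of miR-138-5p reads that were 23 bases long (percent) per rat or pool in the neural tissues, with all lanes on the left (axis from 30 to 90) and without the lane with an extra first base on the right (axis from 74 to 88); neither axis starts at 0. The cerebellum samples lie at 84.2 to 86.9% and above all others, and the low points of cerebrum and brainstem on the left are absent on the right.

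The names whose tissue pattern was most like each miRNA were found by Pearson correlation of the mean log2 level over the 23 tissues among 1432 names, with all libraries, as a description in which all names share the same samples. For miR-138-5p they were miR-330-5p (r = 0.935), miR-879-5p (0.935), miR-6325 (0.934), miR-129-5p (0.934) and miR-598-3p (0.933). For miR-138-1-3p they were miR-338-5p (0.938), miR-6325 (0.911), miR-137-3p (0.903), miR-873-5p (0.899) and miR-338-3p (0.891), and for miR-138-2-3p miR-338-5p (0.945), miR-3546 (0.930), miR-137-3p (0.918), miR-383-5p (0.907) and miR-873-5p (0.907). The 3p arms were closer to each other (0.980) than either was to the 5p arm (0.927 for miR-138-1-3p and 0.890 for miR-138-2-3p). Without the 10 libraries the names closest to miR-138-5p were miR-598-3p (0.931), miR-879-5p (0.931) and miR-330-5p (0.930).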

How the data were processed

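Small RNA of 23 rat tissues was sequenced with TruSeq libraries on an Illumina HiSeq instrument. The authors trimmed adaptors (cutadapt 1.4.1, per the submitters' processing notes), dropped short reads and reads with undetermined bases, collapsed identical reads and counted them with the quantifier of miRDeep2 against miRBase hairpins of rat and then of other species; reads of a hairpin outside its mature arms became precursor entries. The deposited counts per name and per isomiR are raw read counts without normalization, and nothing in them marks molecules. The exact binomial intervals of summed reads cover counting error only. The edgeR intervals also rest on the spread between samples. Of the columns, 0 were left unused.

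The 458 runs were summed to 215 libraries (14 runs that repeat a lane were left out) and these to 207 samples, each a rat or DRG pool in a tissue. Groups followed the tissue labels, where Cortex and Medulla are parts of the kidney. CPM are counts scaled to a sample total of 1000000. Counts were tested with edgeR 4.0.16 (R 4.3.3): upper-quartile scaling, filterByExpr by tissue, quasi-likelihood test, Benjamini-Hochberg adjustment over all names, threshold 0.05; SE is the log2 fold change over the root of F. Shares per sample with at least 50 counts were compared by exact permutation tests (numpy 2.4.6), within rats between regions and between DRG pools and rats, adjusted over the 48 comparisons. The exact binomial intervals came from scipy 1.17.1. A read's ends were placed by its match to the annotated arm, and hairpin sequences and coordinates are those of RefSeq (GRCr8). Only the edgeR comparison of DRG with brain was run on simulated counts, and the scripts for shares, read ends, lanes and profiles were not. Alternatives were TMM scaling, DESeq2 1.42.0, no filter, other minima, all runs, flow cells, left-out rats, pools or libraries, and a block for the rat. Same-numbered samples are from the same rats, so they are paired; the median correlation of their deviations was -0.126 to 0.18 over the 6 pairs of regions.

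The members, marker lists and tests were chosen with earlier results of these data known. The names given as most like a member are the 5 with the highest correlation.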

Additional observations from a re-analysis of the deposited data

Results flagged for a closer look

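Samples that lay far from the rest of their group were found by Dixon's ratio in 87 groups of 4 to 10 samples. Chance alone marks about 1 in 20 groups if the values are normally distributed. That rate does not hold for groups with hardly any reads, where 1 read can mark a sample. For miR-138-5p they were the duodenum of rat 7 (23749 CPM), the ileum of rat 8 (50.6 CPM, lowest) and the uterus of rat 8 (137 CPM). The duodenum and uterus libraries are among the 10 that stood apart from their labels.

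For miR-138-1-3p they were the duodenum of rat 7 (137 CPM, 341 reads), the biceps femoris of rat 2 (0.427 CPM), the pancreas of rat 8 (0.238 CPM) and the non-glandular stomach of rat 8 (0.293 CPM), the last 3 with 1 or 2 reads each. For miR-138-2-3p the duodenum of rat 7 held 38.9 CPM (97 reads). All other such values of miR-138-2-3p rested on 1 to 3 reads: kidney cortex of rat 4 (1.34 CPM), ileum of rat 7 (0.169 CPM), biceps femoris of rat 7 (0.453 CPM), pancreas of rat 10 (0.573 CPM), glandular stomach of rat 4 (0.409 CPM), non-glandular stomach of rat 8 (0.147 CPM), testis of rat 4 (1.53 CPM) and uterus of rat 10 (0.264 CPM).

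The share of 3p reads was highest in the brainstem of rat 11 (0.647%), in the cerebrum of rat 9 (0.435%) and in the hippocampus library of rat 6 (2.08%, 2 of 96 reads), which stood apart from its label. The miR-138-1-3p reads of 21 bases made up 13.5% in the cerebrum of rat 9 and 47.7% in the hippocampus of rat 11. The 23-base share of miR-138-5p was 38.0% in the brainstem of rat 6 and 38.5% in the cerebrum of rat 9, and the share with the annotated start was 47.3% and 47.8% in the same samples, both of which were in the lane with an extra first base. In the hippocampus library of rat 2 that share was 95.7% of 92 reads.

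Reads of the hairpins outside the annotated arms are counted as precursor entries and enter no comparison above. The entry for the stretch before the 5p arm of locus 1 had a mean of 24.5 CPM in the DRG (19.8 and 29.2 in the pools, 469 reads), against 4.65 in cerebrum, 4.29 in hippocampus, 3.77 in brainstem and 0.458 in cerebellum. Its most counted sequence, tggcatggtgttgtgggac (939 counts over all libraries), ends at the base before the 5p arm. The other precursor entry of locus 1 had 1.19 CPM (23 reads) and that of locus 2 had 1.401 CPM (27 reads) in the DRG. The difference between tissues was not tested for these entries.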

How the results depend on the processing

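The higher level of the 3 miRNAs in brain than in non-neural tissues passed the test under each alternative run, and no called difference between brain and other tissues or among the neural tissues changed its direction. The calls of duodenum against the rest did: without the 10 libraries that stood apart miR-138-5p went from 3.27 to -0.086 and miR-138-2-3p from 3.23 to -1.39 (-0.076 and -1.38 with a brainstem and a cerebellum library left out too). That of miR-138-2-3p in whole blood (1.87) became -1.39 in the runs of 1 flow cell. Of the differences without a call, that of cerebrum against hippocampus in miR-138-5p went from 0.42 to -0.059. The DRG difference of miR-138-2-3p lost its call in DESeq2 (2.17; adjusted p = 0.236) and with 1 pool left out (2.04 to 2.69). The 4 of 18 calls between brain regions became 1 in the runs of 1 flow cell alone, which held the same samples with fewer reads (lowest total 46443). They became 8 without the 10 libraries that stood apart, 8 without these and a brainstem and a cerebellum library, and 8 with the replicate block for the rat together with their removal, the last 2 settings having been chosen after the data were seen. With all libraries the replicate block gave the same 4 calls (miR-138-5p between cerebrum and cerebellum 1.53, adjusted p = 0.0020) and changed no other call. TMM scaling and DESeq2 added cerebellum below brainstem for miR-138-5p (-1.30 and -1.46) and miR-138-1-3p (-1.65 and -1.78). The calls on the locus 1 share were 0, and 2 with a minimum of 20 counts, and a minimum of 200 gave no test of it. The calls on read ends were 3, and 0 of 43 with a minimum of 20 and without the 10 libraries (10 with an unadjusted p under 0.05). The cause of these changes was not tested. The 3p arms outside the nervous system were at the limit of the depth.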
